A study of Mus musculus with 10 samples.

Results

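The enteroendocrine transcription factors considered here are 9 genes of the hormone-secreting cells of the gut: Neurog3, Neurod1, Pax4, Pax6, Isl1, Insm1, Rfx6, Nkx2-2 and Rfx3. They were chosen by gene symbol, and 8 of the 9 had a probe set under their symbol among 19505 genes measured; Neurod1 was not analysed here. Neurog3 and Pax4 were treated as early factors and the other 6 as late ones. RNA came from BALB/c mouse small intestine organoids, epithelial cultures kept in Matrigel domes, and was measured on 10 single-colour arrays. Recombinant murine TNF was given to all 10 cultures at 20 ng/ml over 48 h, with PEG as vehicle at 2.625 mM in 5 of them and with pegtarazimod, a peptide linked to PEG, at 5 mg/ml in the other 5. Both groups thus carry TNF, and cultures without it were not analysed here. The submitters describe the 5 samples of a group as biological replicates, and the sources used here do not say what differed between them, so the p-values measure the spread between these samples, which may in part be technical. Replicates 1 and 2 differed from replicates 3 to 5 in both groups: these subsets were split by the component that held 33.4% of the variance around the group means. The labels name no batch, and values within the subsets are given beside each named gene that passed the test in one of them and not over all arrays, or the reverse.

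Enteroendocrine cells arise from secretory progenitors of the crypt that escape Notch signalling. A progenitor that switches on Neurog3 for a short time leaves the cycle and becomes endocrine, and the factors that follow it set which hormones the cell will make. Neurog3 and Neurod1 are basic helix-loop-helix proteins that bind E-boxes, Pax4 and Pax6 carry a paired domain and a homeodomain, Isl1 is a LIM homeodomain protein, Nkx2-2 a homeodomain protein, Insm1 a zinc finger protein, and Rfx6 and Rfx3 belong to the RFX family. The division into early and late is a simplification, since Insm1, Rfx6 and Nkx2-2 are also switched on in progenitors.

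Promoter sequence is shown for Neurog3, the factor that fell with pegtarazimod, for Isl1, the late factor with the highest difference, and for Nkx2-2, whose window held the most E-boxes. RefSeq promoter windows (GRCm38.p6) were found for 7 of the 9 factors, and those of Pax4 and Insm1 are not shown. The letters are the 250 bases before the gene start, 5′ to 3′ on the strand of the gene, with E-boxes (CANNTG) and N-boxes (CACNAG), the latter read by Hes repressors, in capitals. Neurog3 lay at chr10:62132840-62133089 on the plus strand, Isl1 at chr13:116309689-116309938 on the minus strand and Nkx2-2 at chr2:147186403-147186652 on the minus strand.
Neurog3: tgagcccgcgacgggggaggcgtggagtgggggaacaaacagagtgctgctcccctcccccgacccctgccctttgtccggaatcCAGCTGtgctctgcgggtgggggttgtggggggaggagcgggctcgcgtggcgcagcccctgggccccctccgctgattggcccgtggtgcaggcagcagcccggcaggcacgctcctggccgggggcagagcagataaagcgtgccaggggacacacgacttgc
Isl1: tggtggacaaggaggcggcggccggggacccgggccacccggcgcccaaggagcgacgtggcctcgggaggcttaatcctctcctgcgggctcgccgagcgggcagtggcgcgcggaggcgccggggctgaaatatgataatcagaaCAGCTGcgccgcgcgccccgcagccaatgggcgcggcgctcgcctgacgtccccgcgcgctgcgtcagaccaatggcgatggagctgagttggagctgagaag
Nkx2-2: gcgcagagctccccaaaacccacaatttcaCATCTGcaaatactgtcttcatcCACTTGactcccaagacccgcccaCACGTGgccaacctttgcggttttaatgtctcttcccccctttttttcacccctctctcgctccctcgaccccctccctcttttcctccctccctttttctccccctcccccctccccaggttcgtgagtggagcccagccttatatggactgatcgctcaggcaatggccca
The Neurog3 window held 1 E-box, which began 165 bases before the gene start, and that of Isl1 held 1, at 103 bases. The window of Nkx2-2 held 3, at 220, 197 and 173 bases, of which the first is the form CAGATG read on the other strand. An E-box was present in 66.2% of all 32851 windows of this length on either strand, CAGATG (a form of the E-box) in 14.4% and an N-box in 36.7%. No N-box lay in these 3 windows, and the homeodomain core TAATTA (in 4.84% of all windows) and the motif GTTGCC of RFX factors (in 10.4%) were not in them either. Among windows not shown, that of Rfx6 held an N-box at 155 bases. For Pax6, 1 window held an N-box at 136 bases and another GTTGCC at 59 bases. These matches describe letters only and are not shown to be binding sites.

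Neurog3 fell with pegtarazimod and was the only 1 of the 8 measured factors to pass the test. By limma with Benjamini-Hochberg adjustment over all genes, 4.89% of 19505 genes changed and 2.39% fell, so the share of called factors rests on a single gene. Of the other factors, Pax4, Insm1, Nkx2-2, Rfx3 and Rfx6 had differences below 0, and Isl1 and Pax6 differences above 0; over all genes, 49.3% had differences below 0. Before adjustment, 4 of the 8 had a p below 0.05 (Neurog3, Insm1 and Nkx2-2 lower, Isl1 higher), where 19.0% of all genes did. The median difference of the 8 was -0.31 on the log2 scale, and that of all genes was 0.0029. In RNA from whole cultures, fewer cells of a type and less RNA per cell cannot be told apart.

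**Figure D1:**
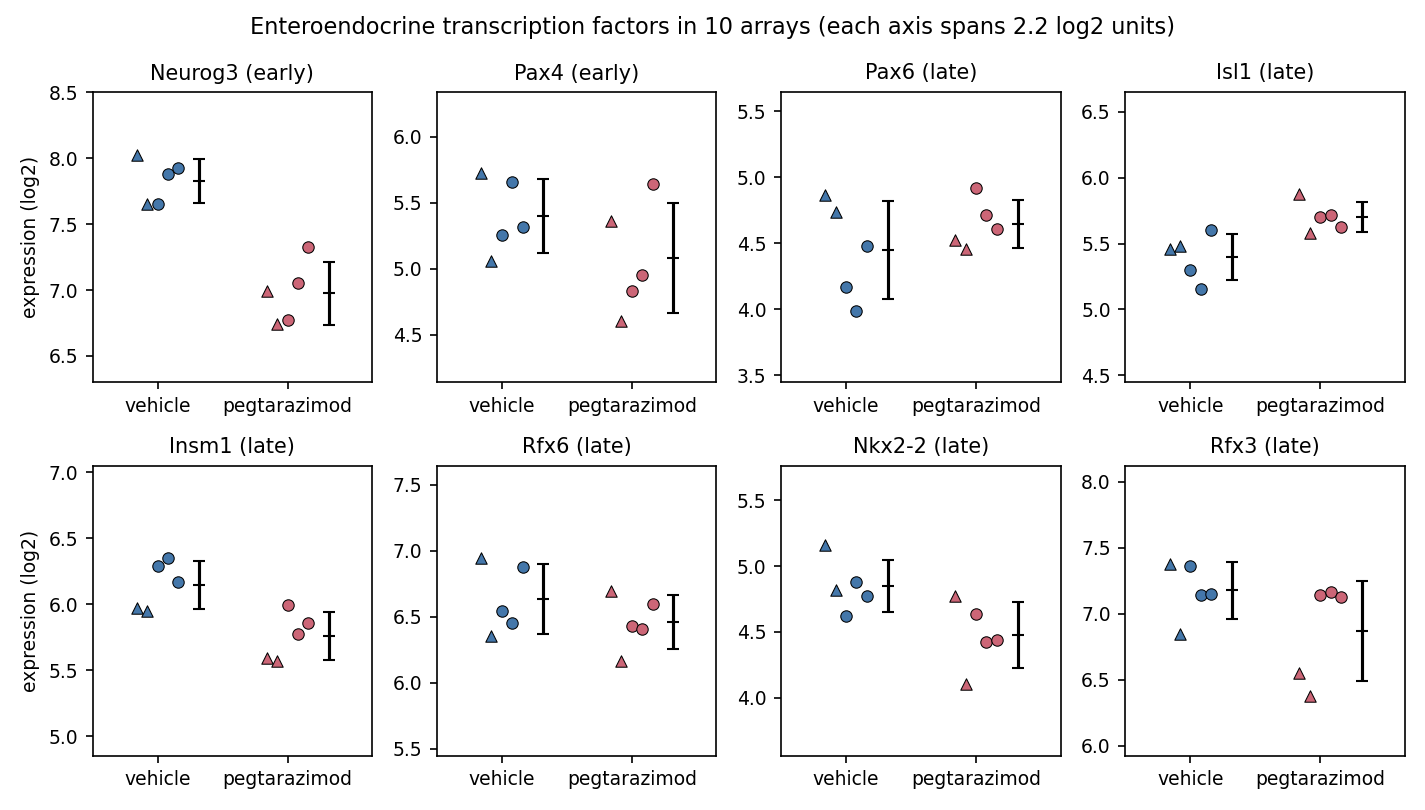
Expression (log2) of the 8 measured factors in each array, with vehicle in blue and pegtarazimod in red. Triangles are replicates 1 and 2, circles replicates 3 to 5, and the bar beside each group is the mean ± SD (n = 5); the groups are separate for Neurog3 and overlap for the other 7.

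Neurog3, which commits progenitors to the endocrine fate, had log2 values of 8.02, 7.65, 7.65, 7.88 and 7.92 in vehicle 1 to 5 and of 6.99, 6.74, 6.77, 7.05 and 7.33 in pegtarazimod 1 to 5. All 5 pegtarazimod arrays lay below all 5 vehicle arrays, with pegtarazimod 5 nearest to them. The groups were separate in this direction for 3.36% of all genes. The mean was 7.83 ± 0.17 with vehicle and 6.98 ± 0.24 with pegtarazimod (SD, n = 5 per group), a difference of -0.85 ± 0.12 (SE), or 1.80-fold, with a 95% interval from -1.11 to -0.59 (limma adjusted p = 0.00181). By its p, Neurog3 stood at rank 73 of 19505 genes. It differed by -0.97 within replicates 1 and 2 (limma adjusted p = 0.00885, where 3.37% of all genes were lower) and by -0.77 within replicates 3 to 5 (0.0155, where 1.50% were lower). Its call held in all 22 alternative settings, leaving out any single array included, with an adjusted p of at most 0.0155.

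Pax4, an early factor needed for serotonin and somatostatin cells, measured 5.72, 5.05, 5.25, 5.66 and 5.31 in vehicle 1 to 5 and 5.36, 4.60, 4.83, 4.95 and 5.64 in pegtarazimod 1 to 5. The groups overlapped, with pegtarazimod 5 as high as the upper vehicle arrays and pegtarazimod 2 the lowest of all. The difference was -0.32 ± 0.18 (SE), with an interval from -0.72 to 0.075, and did not pass (limma adjusted p = 0.388). The interval overlapped that of Neurog3, and the difference between these early factors was not tested.

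Among the late factors, Insm1, a repressor required for endocrine differentiation, came closest to the threshold. It measured 5.97, 5.95, 6.29, 6.35 and 6.17 with vehicle and 5.59, 5.57, 5.99, 5.77 and 5.86 with pegtarazimod, replicates 1 to 5 in order. Within either group replicates 1 and 2 were the lower arrays, and the groups overlapped only through pegtarazimod 3, which lay just above vehicle 1 and 2. The difference was -0.39 ± 0.11 (SE; interval -0.63 to -0.15; limma adjusted p = 0.0676). It was nearly the same in the subsets, -0.38 within replicates 1 and 2 (adjusted p = 0.127) and -0.39 within replicates 3 to 5 (adjusted p = 0.0678). With the subsets as a block its limma adjusted p was 0.00774 (4.83% of all genes were lower in that fit). The subsets were set from these same values, so such a block can lower the p by itself. Without pegtarazimod 3, the array through which the groups overlapped, the adjusted p was 0.0440. Insm1 passed in 4 of 22 alternative settings in all and kept its place above the threshold in the other 18.

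Nkx2-2, needed for most intestinal hormone lineages, measured 5.16, 4.82, 4.62, 4.88 and 4.77 with vehicle and 4.77, 4.11, 4.63, 4.42 and 4.44 with pegtarazimod. Most pegtarazimod arrays were lower, but pegtarazimod 1 and 3 lay within the vehicle range. The difference was -0.37 ± 0.13 (SE; interval -0.65 to -0.095; limma adjusted p = 0.122). The gene was dim: it exceeded the 95th percentile of 1091 olfactory receptor genes, a guide to background with values from 4.40 to 4.55, on 5 vehicle and 3 pegtarazimod arrays, so its fold is uncertain.

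Rfx3, an RFX factor of ciliated cells and endocrine cells, measured 7.38, 6.85, 7.37, 7.15 and 7.15 with vehicle and 6.55, 6.37, 7.14, 7.17 and 7.12 with pegtarazimod. Pegtarazimod 1 and 2 were the lowest arrays, and pegtarazimod 3 to 5 lay within the vehicle range. Over the 10 arrays the difference was -0.31 ± 0.16 (SE; interval -0.66 to 0.046; limma adjusted p = 0.348). It was -0.65 within replicates 1 and 2, where it passed (adjusted p = 0.0361), and -0.076 within replicates 3 to 5 (adjusted p = 0.854). The interaction of treatment with the subsets did not pass for Rfx3 (unadjusted p = 0.0203, limma adjusted p = 0.530).

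Rfx6, which acts beside Neurog3 and in maturing hormone cells, differed least among the lower factors. Its values were 6.94, 6.35, 6.55, 6.45 and 6.88 with vehicle and 6.69, 6.16, 6.43, 6.40 and 6.60 with pegtarazimod. The groups overlapped broadly, and the difference was -0.18 ± 0.13 (SE; interval -0.46 to 0.11; limma adjusted p = 0.545).

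Isl1, a factor of several hormone lineages including the proglucagon cells, measured 5.46, 5.48, 5.30, 5.16 and 5.61 with vehicle and 5.87, 5.58, 5.70, 5.71 and 5.62 with pegtarazimod. Of the pegtarazimod arrays 4 lay above every vehicle array, and pegtarazimod 2 lay just below vehicle 5. The difference was 0.30 ± 0.10 (SE; interval 0.081 to 0.51; limma adjusted p = 0.115), with 0.25 in replicates 1 and 2 and 0.33 in replicates 3 to 5.

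Pax6, an activator of the proglucagon gene, was the factor whose difference turned direction between the subsets. It measured 4.87, 4.74, 4.17, 3.99 and 4.48 with vehicle and 4.53, 4.46, 4.92, 4.71 and 4.61 with pegtarazimod. Vehicle 1 and 2 were above pegtarazimod 1 and 2, whereas vehicle 3 to 5 were below pegtarazimod 3 to 5. The difference was 0.20 ± 0.16 (SE; interval -0.14 to 0.53; limma adjusted p = 0.572) over all arrays, -0.31 within replicates 1 and 2 (adjusted p = 0.378) and 0.53 within replicates 3 to 5 (adjusted p = 0.0518). The interaction of treatment with the subsets had an unadjusted p of 0.00183 and a limma adjusted p of 0.329. Over all genes, 7.65% had an unadjusted interaction p below 0.05 and 0.0256% passed after adjustment. Pax6 was also dim, above the olfactory receptor guide on 7 of 10 arrays, and its fold is uncertain.

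**Figure D2:**
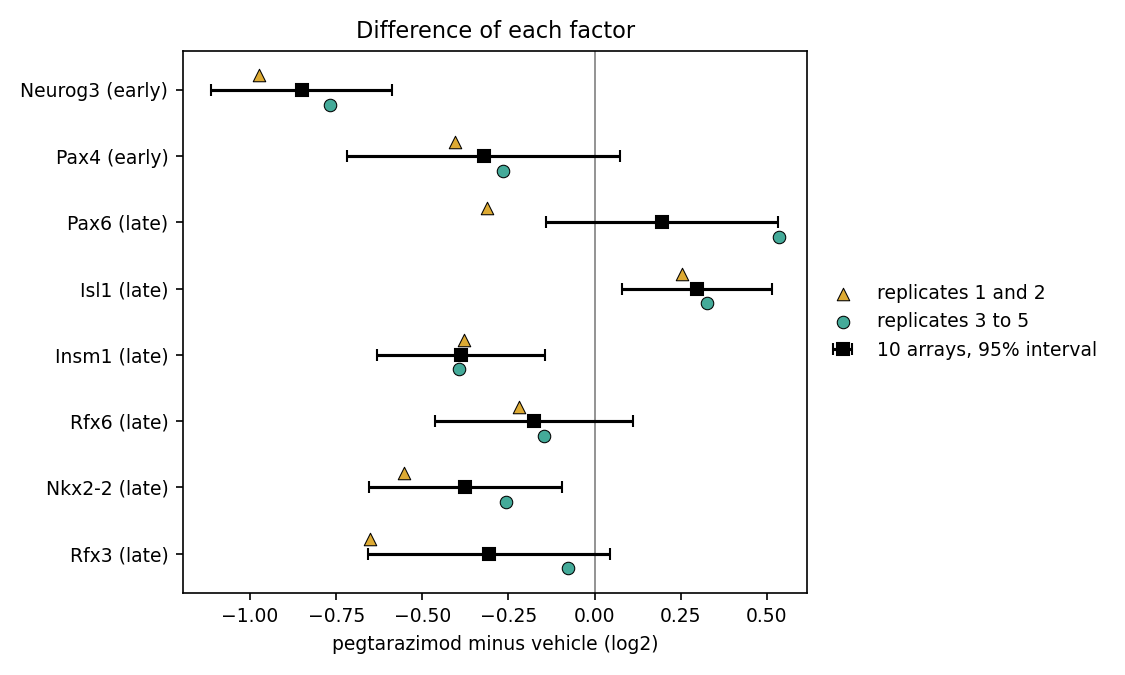
Difference of each factor, pegtarazimod minus vehicle (log2), as a black square with its 95% interval over 10 arrays, and within replicates 1 and 2 (triangle) and replicates 3 to 5 (circle). The Neurog3 interval ends at -0.59, and the subsets of Pax6 lie on opposite sides of 0.

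Set side by side, the early factors had a median difference of -0.59 and the 6 late factors one of -0.24, from -0.39 for Insm1 to 0.30 for Isl1. Both early factors and 4 of the 6 late ones had differences below 0. The medians were -0.69 and -0.34 within replicates 1 and 2, and -0.52 and -0.11 within replicates 3 to 5. The early median rests on 2 genes of which 1 was called, and no test was made of early against late factors as groups.

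Within the groups, Pax4 lay on the same side of its group mean as Neurog3 in 8 of 10 arrays. Their deviations from the group means correlated with r = 0.868 and Spearman's rho = 0.879 over 10 arrays (exact permutation within groups, two-sided, p = 0.00660 and 0.00514). Adjusted over the 28 pairs of factors these became 0.185 and 0.144, so the pair did not pass the correction. Pegtarazimod 5 was highest and pegtarazimod 2 lowest in both genes, and without these arrays, the farthest from the Neurog3 median, r was 0.723 over 8 arrays. With deviations taken within group and subset r was 0.877. Rfx6 deviated with both, at r = 0.681 with Neurog3 and 0.660 with Pax4 (exact permutation adjusted p = 0.367 for each). With Neurog3 its r was 0.640 without pegtarazimod 5 and 2. With Pax4 it was 0.550 without pegtarazimod 5 and vehicle 1, the arrays farthest from the Pax4 median. For Isl1 and Neurog3 r was 0.110 (exact permutation adjusted p = 0.918).

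**Figure D3:**
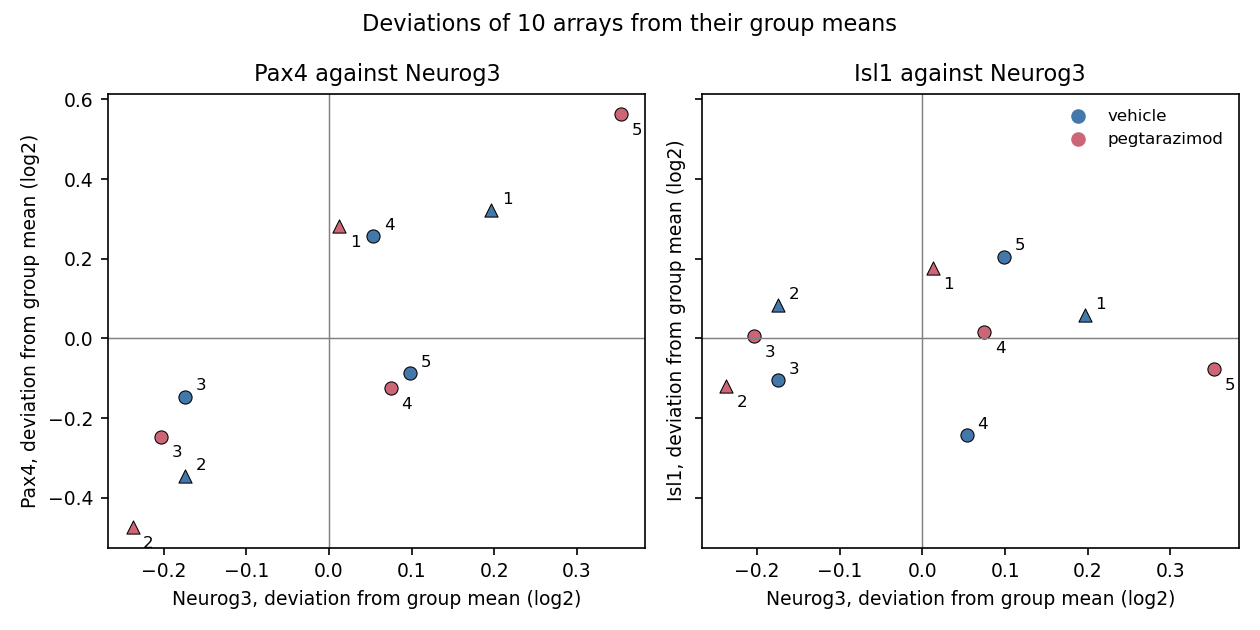
Deviation of Pax4 (left) and Isl1 (right) from the group mean against that of Neurog3 (log2), 1 point per array, numbered by replicate, with vehicle in blue and pegtarazimod in red and with triangles for replicates 1 and 2. The Pax4 points climb with Neurog3 from pegtarazimod 2 to pegtarazimod 5, and the Isl1 points do not.

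The genes whose log2 values followed Neurog3 most closely over the 10 arrays, among 14627 genes above the lower quartile of mean level, were Rnase1 (r = 0.960), Mdm1 (0.958), Nsmaf (0.957), Tent5c (0.950) and the crypt stem cell factor gene Ascl2 (0.942). All 5 fell with pegtarazimod, and these r include that shared difference. With the group means removed, r was 0.743 for Rnase1, 0.705 for Mdm1, 0.750 for Nsmaf, 0.720 for Tent5c and 0.544 for Ascl2. The 5 genes were picked by r over the same 10 arrays, which can raise these values too, and they were not tested. Ascl2 fell by 1.80 on the log2 scale. Rnase1 had a mean of 5.48 with vehicle and of 3.95 with pegtarazimod, the latter below the olfactory receptor guide, so the size of its fall is uncertain. The call of Tent5c was lost without vehicle 3 (limma adjusted p = 0.0509), and within replicates 3 to 5 alone neither Tent5c (0.0751) nor Nsmaf (0.0518) passed.

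A list for Notch control of endocrine fate, which also holds Id1, Id2 and Id3, was measured for 17 of 17 genes. Of these 3 passed, all lower, where 2.39% of all genes were lower, and the median difference was -0.13. Id2, an inhibitor of basic helix-loop-helix proteins, fell from 7.53 ± 0.23 to 6.34 ± 0.16 (SD, n = 5 per group; limma adjusted p = 1.36e-04), the receptor gene Notch2 by 0.55 and the ligand gene Dll1 by 0.48. Within replicates 3 to 5 alone Notch2 did not pass (adjusted p = 0.0566), and Dll1 passed in neither subset (0.101 in replicates 1 and 2, 0.146 in replicates 3 to 5). Dll1 lost its call without any 1 of 6 arrays (vehicle 2, 3, 4 or 5, pegtarazimod 1 or 3), where limma gave adjusted p-values reaching 0.0752 (vehicle 4). Lfng, a modifier of Notch receptors, differed by -0.75 (adjusted p = 0.0535) over all arrays. With the spread pooled over the subsets it passed in both, with -1.09 in replicates 1 and 2 (limma adjusted p = 0.00128) and -0.52 in replicates 3 to 5 (0.0440). This is not a replication, since the subsets were set from these same values. Lfng also passed without pegtarazimod 3, 4 or 5 (0.0409 to 0.0422), in all in 10 of 22 alternative settings. Atoh1, the factor of all secretory progenitors, differed by -0.072 (adjusted p = 0.818), and Hes1, a Notch target that represses Atoh1 and Neurog3, by -0.0036 (adjusted p = 0.994). Both were named after their values were seen.

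Of 25 other endocrine transcription factors listed, 22 were measured and 4 passed, all lower, where 2.39% of all genes were lower. The median difference of the list was 0.023. Prox1, a homeodomain factor found in endocrine and tuft cells, measured 6.00, 6.48, 7.09, 6.86 and 7.05 with vehicle and 5.48, 5.41, 5.50, 5.28 and 5.37 with pegtarazimod. The groups did not overlap, as for 3.36% of all genes in this direction, and within vehicle replicates 1 and 2 were the lower arrays. The difference was -1.29 ± 0.17 (SE, limma adjusted p = 0.00131), with -0.79 in replicates 1 and 2 and -1.62 in replicates 3 to 5. For Prox1 the interaction of treatment with the subsets did not pass (unadjusted p = 0.00193, limma adjusted p = 0.336). The forkhead genes Foxa2 and Foxa1, which act in goblet and endocrine cells, fell by 0.72 and 0.68, and Sox4, which lies upstream of Neurog3 in secretory progenitors, by 0.50. Foxa1 lost its call without any 1 of 6 arrays (vehicle 2, 3, 4 or 5, pegtarazimod 1 or 2), where limma gave adjusted p-values reaching 0.0917 (vehicle 3). Runx1t1 differed by -0.51 (adjusted p = 0.0914) and St18 by -0.39 (adjusted p = 0.115), both named after their values were seen.

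Among the 7 other genes of the RFX family and its partners, Rfx5, a regulator of MHC class II genes, was the 1 that passed and fell by 0.35 (limma adjusted p = 0.0385). Over all genes 2.39% were lower. The call of Rfx5 was lost without any 1 of 8 arrays (all but pegtarazimod 1 and 4), where limma gave adjusted p-values reaching 0.102 (pegtarazimod 2), and with arrays centred on their median (0.0647). Rfx5 passed in neither subset, with nearly the same difference in each (-0.34, adjusted p = 0.225, and -0.35, adjusted p = 0.147). Its partner gene Rfxank differed by 0.38 (adjusted p = 0.129, and 0.0200 without pegtarazimod 4), and Rfxap by -0.11 and Rfx1 by -0.052 (adjusted p = 0.643 and 0.841).

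Downstream, 3 of 12 hormone genes passed, all higher, where 2.50% of all genes rose. The median difference of the list was 0.41, and that of the 8 factors -0.31. The proglucagon gene Gcg measured 9.13, 8.49, 8.50, 8.07 and 8.55 with vehicle and 10.13, 9.73, 10.18, 9.70 and 9.91 with pegtarazimod. It rose by 1.38 ± 0.16 (SE, limma adjusted p = 5.55e-04). The cholecystokinin gene Cck rose by 0.75 (adjusted p = 0.0114, and 0.0856 within replicates 1 and 2) and Gip, the gene of the glucose-dependent insulinotropic peptide, by 1.00 (adjusted p = 0.0269). Gip lost its call without any 1 of 5 arrays (vehicle 3, 4 or 5, pegtarazimod 1 or 2), where limma gave adjusted p-values reaching 0.0804 (vehicle 3), and with an intensity trend and robust priors (0.0682). Tac1, the tachykinin gene of serotonin cells, differed by 0.54 (adjusted p = 0.179) over all arrays, by 0.27 within replicates 1 and 2 (0.525) and by 0.72 within replicates 3 to 5, where it passed (0.0172).

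Of 11 measured granin and prohormone processing genes none passed limma and 2 had an unadjusted p below 0.05, where 19.0% of all genes did, with a median difference of 0.035. The granin genes Scg2, Chga and Chgb differed by 0.42, 0.33 and 0.21 and the amidating enzyme gene Pam by -0.26 (limma adjusted p = 0.130, 0.281, 0.306 and 0.246). Scg2 passed within replicates 1 and 2 (adjusted p = 0.0471) and with the subsets as a block (0.0329). Of 13 channel and synaptic genes of endocrine cells none passed limma and 3 had an unadjusted p below 0.05, also near that 19.0%, with a median of -0.11. The sulphonylurea receptor gene Abcc8 differed by -0.33, Snap25 by -0.36, Rimbp2 by -0.33 and the calcium channel gene Cacna1a by -0.25 (limma adjusted p = 0.0672, 0.0920, 0.107 and 0.267), and Abcc8 passed without vehicle 1 (0.0361).

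**Figure D4:**
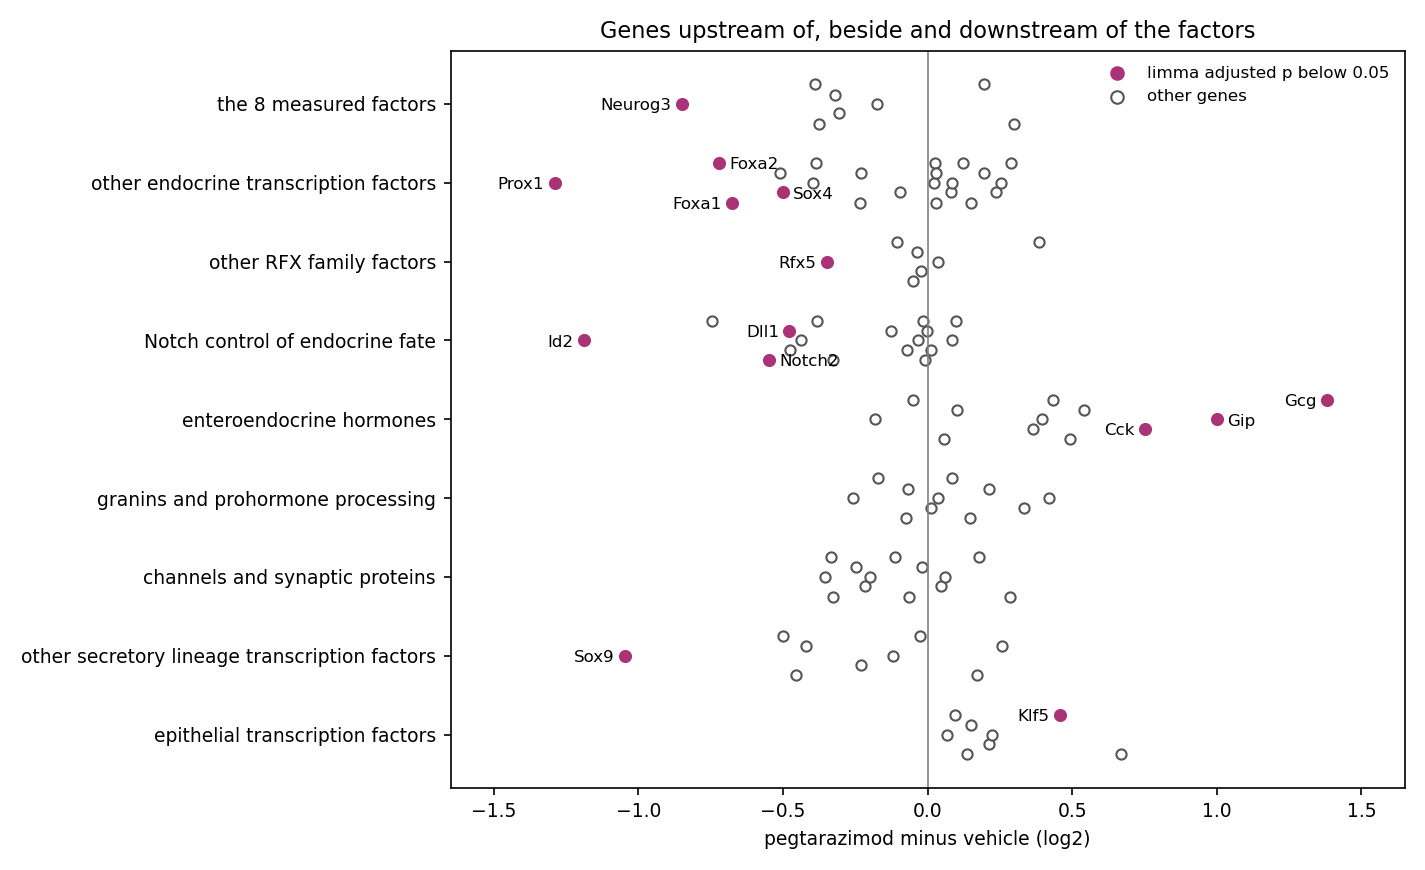
Difference of each listed gene, pegtarazimod minus vehicle (log2), 1 point per gene, by list; filled points passed limma at an adjusted p below 0.05 and are named, open points did not. Called genes lie left of 0 among transcription factors and the Notch list, with Klf5 as the exception, and right of 0 among hormones.

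Transcription factors of other lineages were compared for context. Of 9 for other secretory cells 1 fell, Sox9 of stem and Paneth cells (-1.05, limma adjusted p = 1.96e-04), where 2.39% of all genes fell. The median of these 9 was -0.23. Foxa3, the tuft cell factor gene Pou2f3 and the zymogen cell factor gene Bhlha15 differed by -0.45, -0.50 and -0.42 (adjusted p = 0.0516, 0.0519 and 0.120). Foxa3 differed by -0.67 in replicates 1 and 2, where it passed (adjusted p = 0.00694), and by -0.31 in replicates 3 to 5 (0.143). It also passed without pegtarazimod 3 or 4 (0.0492 and 0.0302), in all in 10 of 22 alternative settings. For Bhlha15 the adjusted p was 0.0193 in replicates 1 and 2 and 0.266 in replicates 3 to 5. Pou2f3 passed in 5 of 21 settings, in neither subset. Of 8 measured epithelial factors 1 rose, Klf5 (0.46, adjusted p = 0.0398), where 2.50% of all genes rose. All 8 had differences above 0, where 49.3% of all genes had differences below 0. Klf5 lost its call without any 1 of 6 arrays (vehicle 3, 4 or 5, pegtarazimod 1, 2 or 3), where limma gave adjusted p-values reaching 0.116 (vehicle 3), and within replicates 1 and 2 (0.29, adjusted p = 0.272), but passed within replicates 3 to 5 (0.57, 0.0103). The enterocyte factor gene Hnf4g differed by 0.67 (adjusted p = 0.0724) over all arrays. With the spread pooled over the subsets it passed in both, with 0.69 in replicates 1 and 2 (limma adjusted p = 0.0158) and 0.65 in replicates 3 to 5 (0.0103). As for Lfng, this is not a replication. Hnf4g also passed without vehicle 1 (0.0296) or pegtarazimod 4 (0.0473), in all in 7 of 22 alternative settings. The GATA factor genes Gata4 and Gata6 differed by 0.21 and 0.22 (adjusted p = 0.259 and 0.414).

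Arrays correlated over all genes at 0.973 or above. The 8 measured epithelial factors, Cdx2 and Hnf4a among them, had a mean level of 9.41 to 9.81 with vehicle and of 9.63 to 9.99 with pegtarazimod, above the median of all genes on every array (5.60 to 5.66). Markers of several epithelial cell types moved with the groups. Of 5 measured stem cell markers 4 fell (mean level 8.87 to 9.15 with vehicle, 7.30 to 8.17 with pegtarazimod) and of 6 Paneth cell markers 3 fell (8.02 to 9.04 and 7.11 to 8.22). Over all genes 2.39% fell. Of 6 goblet cell markers 6 rose (7.25 to 7.62 and 8.33 to 8.61), and of 6 enterocyte markers 2 rose (8.28 to 8.88 and 9.15 to 10.38). Over all genes 2.50% rose. The part of these cell types in the difference of Neurog3 was not tested. None of 5 tuft, 7 mesenchymal, 5 immune, 6 neuron and glia or 5 endothelial markers passed limma. Before adjustment 1 tuft, 0 mesenchymal, 1 immune, 0 neuron and glia and 1 endothelial marker had a p below 0.05. Over all genes 19.0% did. The mean levels of these lists lay between 3.81 and 4.71 on all arrays, but some genes were brighter. The brightest gene had a mean of 5.92 in the tuft list, 6.41 in the mesenchymal, 4.27 in the immune and 5.04 in the endothelial list. Below the olfactory receptor guide on average lay 2 of 5 tuft, 4 of 7 mesenchymal, 5 of 5 immune and 4 of 5 endothelial markers. For the neuron and glia list, of interest because neurons also use Isl1, Insm1 and Pax6, the mean level was 4.43 to 4.71 with vehicle and 4.44 to 4.64 with pegtarazimod. Of its 6 measured markers 3 lay below the olfactory receptor guide on average, and the brightest had a mean of 6.44.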

How the data were processed

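RNA from 10 organoid cultures, 5 per group, was measured on 10 arrays, and the sample titles gave each group and replicate number. The authors deposited log2 expression for each probe set, made with oligo and RMA per the submitters' processing notes (RMA corrects background and normalises arrays by quantiles). Their versions and genome build are not stated in these sources. A change shared by most genes would not show in such values, and no detection calls were used. Of 22203 probe sets, 19572 had 1 gene symbol in the platform annotation. The other 2631 had no single symbol there and were left out, which left 19505 genes. A gene with several probe sets was taken by its brightest, and each measured factor had 1. Differences are pegtarazimod minus vehicle, from lmFit and eBayes of limma 3.58.1 (R 4.3.3) without covariates, with Benjamini-Hochberg adjustment over all 19505 genes and a threshold of 0.05. The number of arrays limits the precision. The fit was tested on data simulated with independent noise. It recovered 37 of 67 changes of 0.5 on the log2 scale, 67 of 67 of 0.85 and 65 of 66 of 1.25. Of 181 calls 12 were false. Changes smaller than 0.5 were not simulated. The simulated data held no subsets and gave 181 calls where the real data gave 954, so these rates need not hold for the real fit. Subset values (replicates 1 and 2, replicates 3 to 5) come from a model with 4 groups that pools the spread. The subsets were set from these same values, so a call within them or with them as a block is not a replication. The members, lists, alternatives and the rule for named genes (all factors, up to 4 genes of each list with the smallest p, and the 5 genes most like Neurog3) were chosen with earlier results of these data known. Like patterns were not sought for Neurod1. Motifs were searched in RefSeq windows with Python 3.11.15, and figures drawn with matplotlib 3.10.9.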

Additional observations from a re-analysis of the deposited data

Results flagged for a closer look

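In 90 groups of 5 arrays (the 8 factors and the other named genes, vehicle and pegtarazimod), 6 held an array that stood far from the other 4, by Dixon's gap ratio at its 95% critical value of 0.71. Chance alone gives this in about 5% of groups. None concerned the 8 factors. Scg2 was lowest in vehicle 4 (6.60, with the nearest at 6.98), and so was Chgb (9.76, nearest 10.08). Cacna1a was highest in vehicle 3 (6.32, nearest 5.89) among vehicle arrays and in pegtarazimod 5 (5.97, nearest 5.66) among pegtarazimod arrays. Gata4 was highest in vehicle 1 (10.34, nearest 10.03). Rnase1, the gene most like Neurog3, was highest in pegtarazimod 5 (4.72, nearest 3.83), the pegtarazimod array in which Neurog3 was also highest. Since Rnase1 was picked for its likeness over these same arrays, the shared array is no separate observation, and it weighs on their r.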

How the results depend on the processing

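The direction of Neurog3 and its call held in all 22 alternatives. Of 172 values of the 8 factors under the alternatives, 166 kept direction and side of the threshold, 5 passed where the reported fit did not (Insm1 in 4 and Rfx3 in 1) and 1 turned direction (Pax6 within replicates 1 and 2, -0.31). The number of factors called was 2 in place of 1 without the dimmest 50% of genes (Neurog3 and Insm1 of the 4 left), with a replicate block, with the subsets as a block and within replicates 1 and 2, and 1 to 2 on leaving out each array. The early minus late median, -0.34, ranged from -0.41 to -0.26 and could not be given without the dimmest 50% of genes. Over all genes 954 were called, 1606 with the replicate block, 1820 with the subset block and 437 to 1245 on leaving out each array (437 without vehicle 3). Of the listed pathway genes 13 were called, 27 with either block and 8 to 17 on leaving out each array. Replicate numbers were not taken as pairs. The deviations of same-numbered arrays correlated at 0.0993 to 0.310, below 0.1 for number 3. Of 10 arrays 8 correlated best with their own number, a hint from the data and not the design. Same-numbered arrays also share a subset, which can raise that count, and this was not tested. Rfxap turned direction within replicates 1 and 2 (0.0047) and Rfx1 within replicates 3 to 5 (0.011) and without pegtarazimod 4 (range on leaving out each array -0.081 to 0.012); the cause was not tested. Median centring of arrays moved the median of all genes to 0.030. Signal near background limits Pax6, Nkx2-2 and Rnase1.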
